A study of Mus musculus with 2 samples.

Results

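In all, 68 genes of cellular defence against oxidants were followed in ovulating mouse ovaries with and without the progesterone receptor (PR, gene Pgr). They were taken by symbol from the array's platform annotation: glutathione transferases (Gst and Mgst genes), glutathione peroxidases (Gpx), peroxiredoxins (Prdx), sulfiredoxin (Srxn1), glutaredoxins (Glrx), superoxide dismutases (Sod1 to Sod3), and every gene whose symbol starts with Txn. Gclc, Gclm, Gss, Gsr, Cat, Nqo1, Hmox1 and Nfe2l2 were added by name. These are 68 of 18193 genes read by a probe set with a single gene symbol, and for each the brightest probe set by mean log2 signal was used. PR knockout ovaries came from C57BL/6 mice labelled PR knockout, and wild-type ovaries from mice of the same background. All mice were 24 to 28 days old. Follicle growth was started with PMSG, a gonadotropin from pregnant mares, at 5 IU, and ovulation with hCG, the human chorionic hormone, at 5 IU and 48 h later. Ovaries were taken 11 h after hCG. Each genotype was measured on 1 Affymetrix mouse genome array, so there are no replicates, no test was possible and each value is a single measurement. The disrupted part of Pgr and the number of mice behind each RNA sample are not given in the sources used here.

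Cells clear oxidants through linked thiol systems. Superoxide dismutases turn superoxide into hydrogen peroxide, which catalase, glutathione peroxidases and peroxiredoxins reduce to water. Glutathione is a tripeptide made in consecutive steps by glutamate-cysteine ligase (Gclc and Gclm) and glutathione synthetase (Gss). It supplies electrons to the glutathione peroxidases and is joined to other compounds by the transferases. Thioredoxin supplies electrons to the peroxiredoxins. NADPH recharges glutathione and thioredoxin through glutathione reductase (Gsr) and the thioredoxin reductases. The transcription factor NRF2 (Nfe2l2) drives many of these genes when cells are oxidised. In the ovary, reactive oxygen species form after the ovulatory gonadotropin surge, and antioxidants placed around the mouse ovary are known to hinder follicle rupture.

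Signals were MAS5 intensities, and a gene counted as measured when its signal reached the floor, the median of all probe sets other than controls, on at least 1 array. The floor was 38.0 on the knockout and 36.2 on the wild-type array. The brightest of the 3 Pgr probe sets gave 42.8 in the knockout and 36.5 in the wild-type ovary, so both signals lay close to the floor and the genotype could not be checked from them. Ovarian identity was clear on both arrays. Of the genes with a probe set, 10 of 10 granulosa cell genes and 8 of 9 oocyte genes reached the floor on both. The remaining oocyte gene, Figla, reached it in the knockout only. The summed signal of the granulosa genes was 19632 in the knockout and 16928 in the wild-type ovary. By gene, 9 of the 10 were higher in the knockout, 5 of them at least 1.5-fold, with a median of 0.47 on the log2 scale. Inha, the brightest, was the 1 lower gene, with 8073 in the knockout and 8399 in the wild type. The 8 endothelial genes summed to 2045 in the knockout and 1693 in the wild type. The 8 stromal genes summed to 22552 in the knockout and 21363 in the wild type. The sums of 5 luteal genes, 23615 in the knockout and 29656 in the wild type, and of 6 theca and steroidogenic genes, 30427 in the knockout and 32461 in the wild type, ran the other way. These lists overlap, since both hold Star, with 4307 in the knockout and 6317 in the wild type, and Cyp11a1, with 10744 and 11658. Akr1c18, a progesterone-inactivating enzyme on the luteal list, was 7.01-fold lower. Of the luteal genes, 2 (Ptgfr and Scarb1) were higher in the knockout and 3 lower. Of the theca and steroidogenic genes, 2 (Ptch1 and Hsd3b1) were higher and 4 lower. Of 5 erythroid genes, 4 were under the floor on both arrays, and the summed signals were 111 in the knockout and 125 in the wild type. Of 6 fat cell genes, Fabp4 alone was measured, at 70.9 in the knockout and 335 in the wild type. In a whole ovary, fewer cells of a type and less RNA per cell cannot be told apart. The part of these shifts in the differences below was not tested.

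The antioxidant genes showed no common shift between the genotypes. Of the 68 genes, 59 were measured, 57 of them on both arrays. The others, Gpx2, Gpx5, Gpx6, Gstm3, Gsto2, Gstp3, Gstt3, Gstt4 and Txndc8, stayed under the floor in both ovaries. Taken as knockout minus wild type, the log2 differences had a median of 0.05 over the measured antioxidant genes, against 0.06 over all 11316 measured genes. Sod3, Gstm6, Gstt2, Mgst2, Txnip, Gstm4 and Txndc16 were at least 1.5-fold higher in the knockout, 7 of 59, where 6.54% of all measured genes were. Gsta4, Gclc and Srxn1 were at least 1.5-fold lower, 3 of 59, where 4.75% of all measured genes were. At 2-fold, Sod3 and Gstm6 were higher (1.15% of all measured genes) and 0 members were lower (1.72%). The members' share at 1.5-fold was 5.08% for lower signal, near that of the array, and 11.9% for higher signal, above it by a few genes. The split over all measured genes, 740 higher against 538 lower, became 552 against 665 with median centring, 567 against 613 with quantile normalization and 517 against 673 with a loess correction. Over the members the split was 6 against 3 with each of these 3 rescalings.

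The antioxidant genes lay towards high signal, and the background differed there. When the measured genes were cut into 10 equal groups by mean signal, the 2 brightest groups held 29 of the 59 members, and there 1.72% of genes were at least 1.5-fold higher and 4.73% lower in the knockout. Of these 29 members, Txnip was higher and Gclc and Gsta4 were lower. In the other 8 groups, with 30 members, 7.74% of genes were higher and 4.76% lower, and 6 members were higher and 1 lower. Of these 6, 4 genes, Gstm6, Gstt2, Gstm4 and Txndc16, were in group 2 from the dim end, with signals from 37.1 to 97.2. In that group 176 of 1132 measured genes were at least 1.5-fold higher, a larger share than in the 8 groups together, and 4 of its 7 members were.

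**Figure D1:**
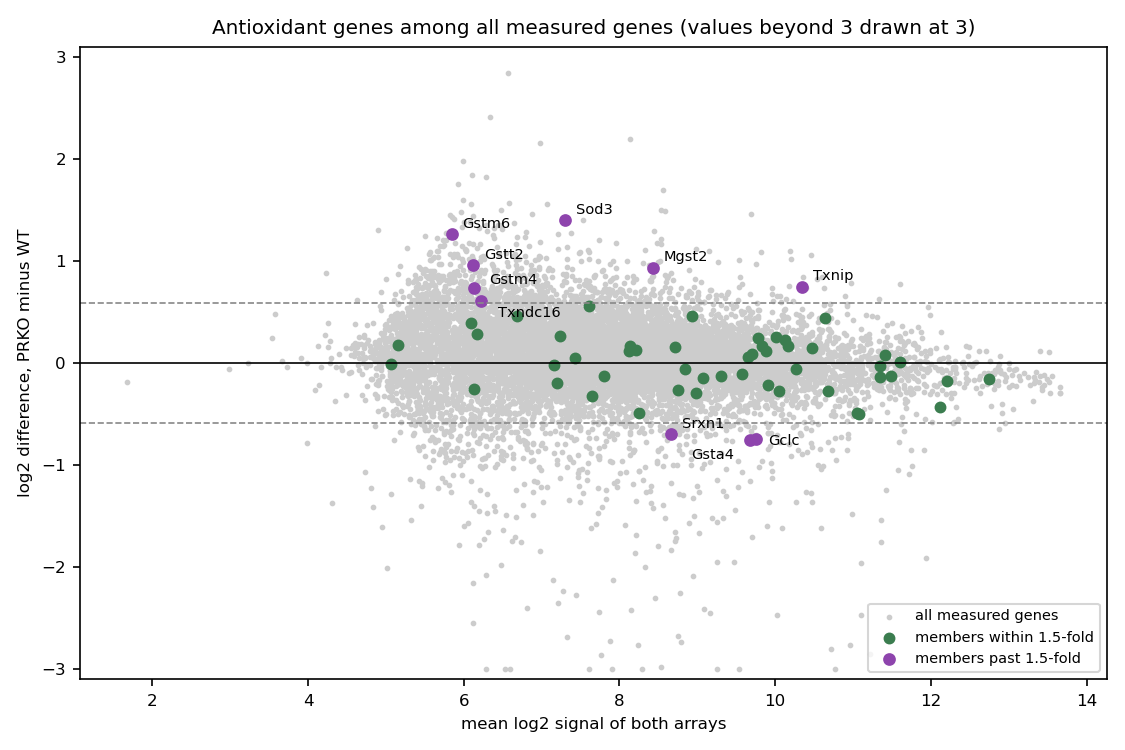
Log2 difference in signal (knockout minus wild type) against the mean log2 signal of both arrays, for all 11316 measured genes (grey) and the 59 measured antioxidant genes (coloured). The dashed lines mark 1.5-fold; 10 members lie beyond them, 7 above and 3 below, and most of the others lie near 0.

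The enzymes that make glutathione were mixed, with the catalytic subunit of its rate-limiting step lower in the knockout. Gclc, that subunit, had a signal of 666 in the knockout and 1114 in the wild-type ovary, 1.67-fold lower, and a log2 difference of -0.53 was found with its other probe set. Gclm, the modifier subunit that raises the ligase's affinity for glutamate, had 442 in the knockout and 397 in the wild type by the probe set used. Its dimmer probe set went the other way, with -0.52 against 0.16 on the log2 scale. Gss, which adds glycine to complete glutathione, gave 213 in the knockout and 232 in the wild type, and its other probe set gave -0.63. Gsr, which returns oxidised glutathione to its reduced form, gave 256 in the knockout and 359 in the wild type, 1.40-fold lower, with -0.13 in its other probe set. The paired subunits of the ligase thus differed in direction by their brightest probe sets and had the same direction by their dimmer ones.

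Promoters were searched for the antioxidant response element, the site of NRF2 and its small Maf partners, since Gclm and Srxn1 are known NRF2 targets. Windows of 250 bases before to 50 after the start site were taken from RefSeq, GRCm38.p6, for the 60 members that the promoter table holds. The element was searched on both strands as TGACNNNGC and as TGAGNNNGC. The TGAC form stood in 12 of the 82 member windows, 14.6%, and in 12.4% of all 32851 windows. The TGAG form, added after the Srxn1 window had been seen, stood in 13 member windows, 15.9%, and in 17.6% of all windows. Of the members past 1.5-fold, 6 had a window, and Gclc, Gsta4, Sod3 and Gstt2 were not searched. Srxn1 is shown because it is the one of those 6 with a match to either form, and Gclm because it encodes the ligase subunit that was searched. Both run from 250 bases upstream to the base before the start site, with matches in capitals. The Gclm window is chr3:122245307-122245556 and the Srxn1 window chr2:152105274-152105523, both on the plus strand.
Gclm: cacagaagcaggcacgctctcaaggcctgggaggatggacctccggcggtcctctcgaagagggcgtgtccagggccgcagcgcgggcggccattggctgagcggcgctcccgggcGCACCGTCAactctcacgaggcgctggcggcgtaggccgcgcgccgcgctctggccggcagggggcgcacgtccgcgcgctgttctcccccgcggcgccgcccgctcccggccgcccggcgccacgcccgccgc
Srxn1: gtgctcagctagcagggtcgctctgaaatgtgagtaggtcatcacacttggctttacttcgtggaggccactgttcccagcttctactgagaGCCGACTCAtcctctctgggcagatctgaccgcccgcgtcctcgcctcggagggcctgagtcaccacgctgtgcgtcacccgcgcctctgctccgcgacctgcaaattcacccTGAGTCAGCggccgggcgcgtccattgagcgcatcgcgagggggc
The Gclm match starts 134 bases before the start site. Srxn1 holds a match 158 and another 45 bases before it, and a further one, GCTAGGTCA as read on the plus strand, 29 bases after it. A match describes letters only.

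**Figure D2:**
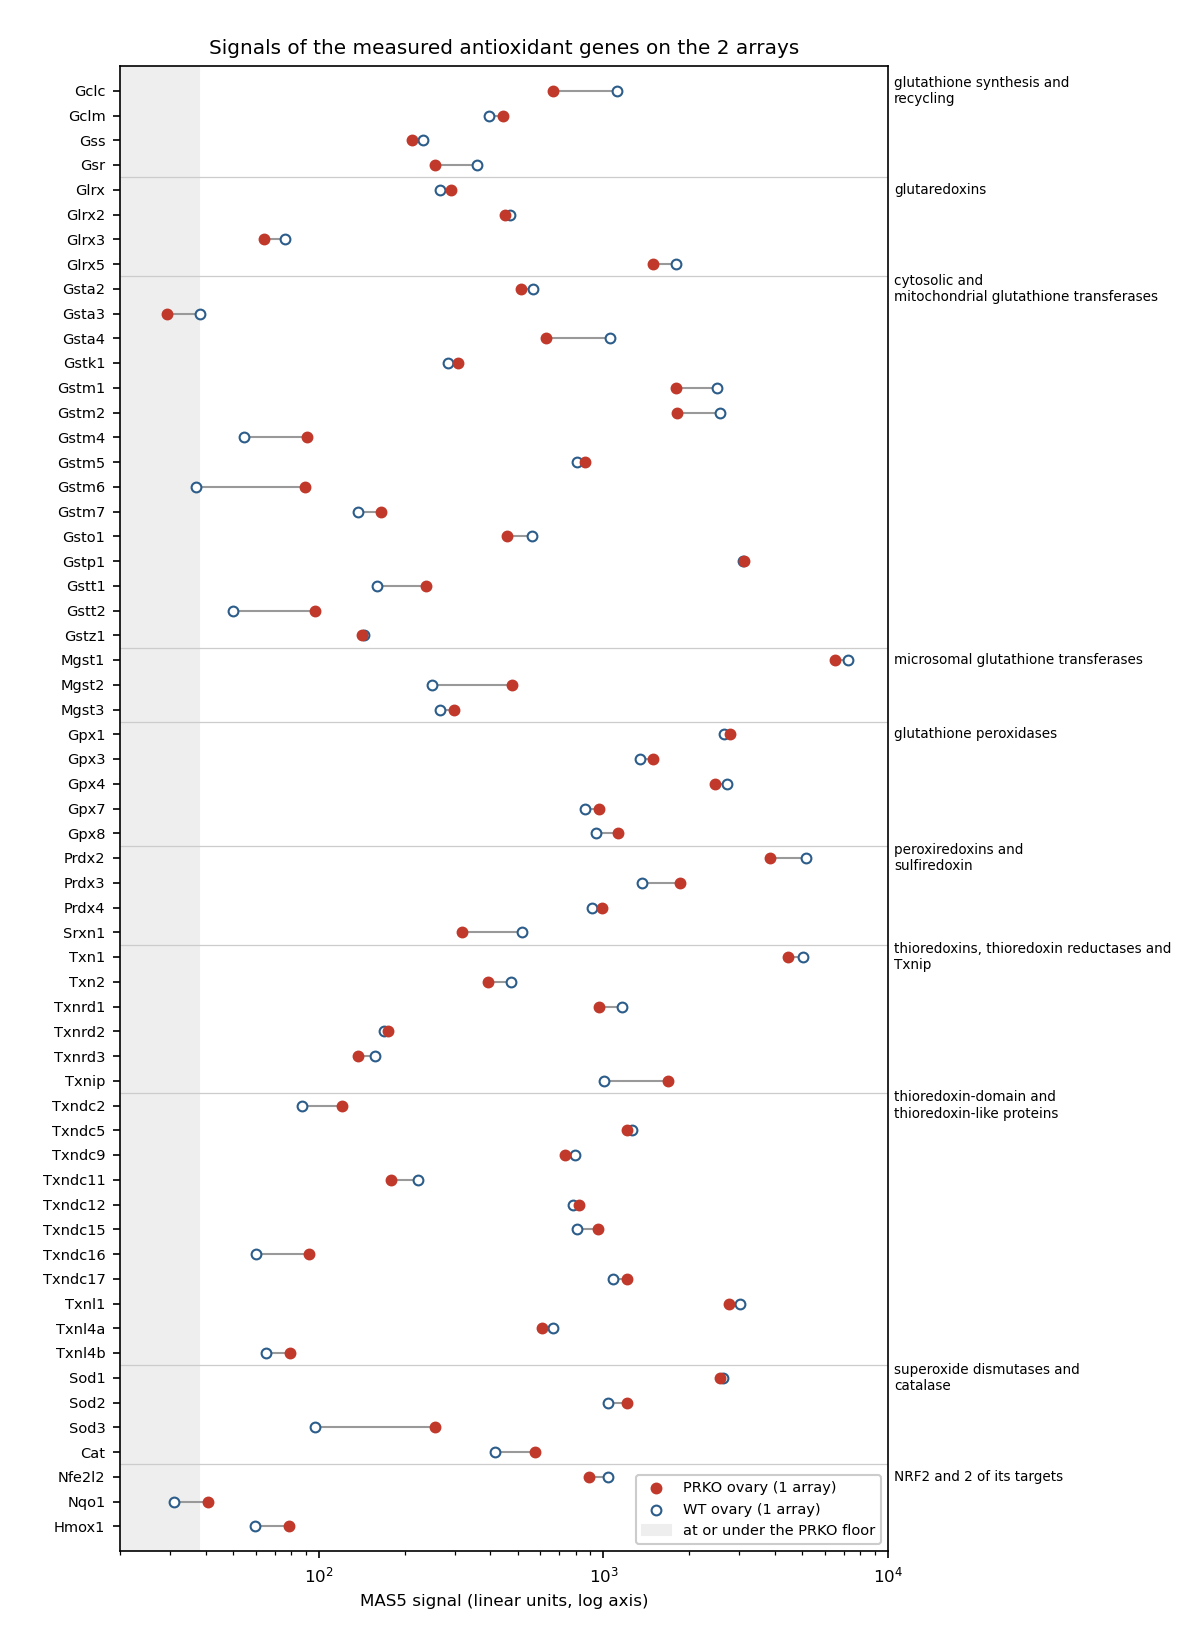
MAS5 signal (log axis) of each of the 59 measured antioxidant genes in the PR knockout ovary (filled red) and the wild-type ovary (open blue), 1 array each, by family; the line joins the values of a gene, and the grey zone lies under the knockout floor of 38.0. The widest gaps are those of Sod3 and Gstm6, with the knockout higher.

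Among glutathione transferases, which join glutathione to lipid peroxidation products and foreign compounds, members of the mu class went in opposite directions. Of 20 soluble transferases, 15 were measured, of which Gstm6, Gstt2 and Gstm4 were at least 1.5-fold higher in the knockout, Gsta4 was lower and 11 lay between. Gsta4, known for conjugating the lipid peroxidation product hydroxynonenal, had 628 in the knockout and 1058 in the wild type, 1.69-fold lower. Its log2 difference of -0.75 was exceeded towards lower signal by 341 of the 11316 measured genes. The other measured alpha-class genes were within 1.5-fold. Gsta2 gave 513 in the knockout and 566 in the wild type, and Gsta3 lay at 29.2, under the floor, in the knockout and at 38.1 in the wild type.

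The mu-class genes form a run of direct neighbours among protein-coding genes on chromosome 3, in the order Gstm5, Gstm7, Gstm6, Gstm3, Gstm2, Gstm1 and Gstm4. Gstm2 had 1814 in the knockout and 2569 in the wild type, 1.42-fold lower. Its neighbour Gstm1 had 1793 in the knockout and 2514 in the wild type, 1.40-fold lower, and its 4 measured probe sets had log2 differences between -0.49 and -0.28. The nearest measured genes on either side of this pair, Gstm6 and Gstm4, had the other sign. Gstm3, between Gstm6 and Gstm2, was under the floor on both arrays. Gstm4 gave 90.7 in the knockout and 54.4 in the wild type, 1.67-fold higher. Gstm6 gave 89.1 in the knockout and 37.1 in the wild type, 2.40-fold higher, but the wild-type value lay just above the floor of 36.2. Gstm7 and Gstm5 had log2 differences of 0.26 and 0.09. Mu-class transcripts are alike in sequence, and how far a probe set of this family also reads a paralog was not tested.

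The theta-class genes Gstt1 and Gstt2, which lie in 1 run on chromosome 10 with Gstt3 and Gstt4, were both higher in the knockout. Gstt2 had 97.2 in the knockout and 49.95 in the wild type, 1.95-fold higher, and Gstt1 had 237 in the knockout and 161 in the wild type, 1.48-fold higher. The remaining soluble transferases lay close together. Gstp1, the pi-class enzyme, had 3122 in the knockout and 3104 in the wild type, and Gstk1, Gstz1 and Gsto1 had log2 differences of 0.12, -0.02 and -0.30, with -0.51 in the other probe set of Gsto1.

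The microsomal transferases are membrane enzymes that also reduce lipid hydroperoxides. Mgst2, whose human form can join glutathione to leukotriene A, had 478 in the knockout and 249.8 in the wild type, 1.91-fold higher. In all, 156 of the measured genes had a more positive log2 difference. Mgst1 gave 6489.7 in the knockout and 7233 in the wild type, and Mgst3 had 298 in the knockout and 265 in the wild type, both within 1.5-fold.

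Glutathione peroxidases were close to equal in the ovaries. All 5 measured members were within 1.5-fold, with log2 differences from -0.14 to 0.25 and a median of 0.15. Gpx1, the cytosolic enzyme, had 2795 in the knockout and 2649 in the wild type. Gpx4, which reduces peroxidised membrane lipids, had 2476 in the knockout and 2725 in the wild type, with -0.34 in its other probe set. The secreted Gpx3 gave 1494 in the knockout and 1349.5 in the wild type. Of the members of the endoplasmic reticulum, Gpx7 gave 968 in the knockout and 862 in the wild type, and Gpx8 gave 1124 in the knockout and 944 in the wild type. The genes whose products carry selenocysteine, Gpx1, Gpx3, Gpx4 and the thioredoxin reductases, had a median log2 difference of -0.05 over 6 measured members, and 0 of them were past 1.5-fold.

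Prdx2 and Prdx3 went opposite ways, both within 1.5-fold by the probe set used. Prdx2, a cytosolic enzyme, had 3837 in the knockout and 5163 in the wild type, 1.35-fold lower. Its other probe set gave -0.96 on the log2 scale, from 671 in the knockout and 1309 in the wild type. Red cells are rich in this enzyme. Of 9 erythroid genes listed, 5 had a probe set with a single symbol, and Hbb-b1 and Hbb-bt were not among them. Hba-a1, Slc4a1, Epb42 and Rhag were under the floor on both arrays, and Alas2 gave 83.4 in the knockout and 87.8 in the wild type. The part of red cells in the Prdx2 difference was not tested. Prdx3, a mitochondrial enzyme, had 1859 in the knockout and 1366 in the wild type, 1.36-fold higher. Prdx4, the enzyme of the endoplasmic reticulum, gave 985 in the knockout and 908 in the wild type, its probe sets lying between -0.36 and 0.21 in log2 difference. Srxn1, which repairs overoxidised peroxiredoxins, had 319 in the knockout and 516 in the wild type, 1.62-fold lower. Its other measured probe sets gave -0.55 and -0.39, so all 3 were lower and 1 was past 1.5-fold. Probe sets annotated to Prdx1 carried another symbol as well and were not analysed here. Prdx5 and Prdx6 were not among the members either.

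In the thioredoxin system the inhibitor stood apart. Txnip, which binds reduced thioredoxin and curbs glucose uptake, had 1688 in the knockout and 1003 in the wild type, 1.68-fold higher, and its other probe set gave 0.67. Thioredoxin itself, Txn1, gave 4447 in the knockout and 5015 in the wild type, a log2 difference of -0.17. The mitochondrial form Txn2 gave 392.2 in the knockout and 473 in the wild type, its probe sets lying between -0.27 and 0.16. Txnrd1, the cytosolic reductase, gave 966 in the knockout and 1166 in the wild type, 1.21-fold lower. The mitochondrial Txnrd2 gave 175 in the knockout and 169.5 in the wild type, with up to 0.46 in its other probe sets, and Txnrd3 gave 138 in the knockout and 158 in the wild type. Glutaredoxins, which use glutathione, were all within 1.5-fold. Glrx gave 291 in the knockout and 267 in the wild type, and Glrx2, Glrx3 and Glrx5 had log2 differences of -0.06, -0.25 and -0.27, with -0.30 and -0.55 in the other probe sets of Glrx2.

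The Txnip promoter was searched for the palindromic progesterone and glucocorticoid receptor element (GNACA and TGTNC spaced by 3 bases of any kind) and for the E-box CACGTG, on both strands. Of the 82 member windows, 1 held the receptor element, that of Txnip, against 0.475% of all windows. The E-box in this exact form stood in 5 member windows (6.10%) and in 7.15% of all windows, and no Txnip window held it. Variant forms of the E-box, such as CACGAG, were not searched. The Txnip sequence, chr3:96557707-96557956 on the plus strand, is shown with the element in capitals; it starts 172 bases before the start site.
Txnip: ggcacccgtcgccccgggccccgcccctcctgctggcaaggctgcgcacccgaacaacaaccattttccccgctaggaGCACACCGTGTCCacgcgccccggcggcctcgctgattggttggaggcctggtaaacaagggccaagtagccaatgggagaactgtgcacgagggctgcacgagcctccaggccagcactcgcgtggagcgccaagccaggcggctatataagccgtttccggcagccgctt
Whether any receptor occupies these letters was not measured.

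**Figure D3:**
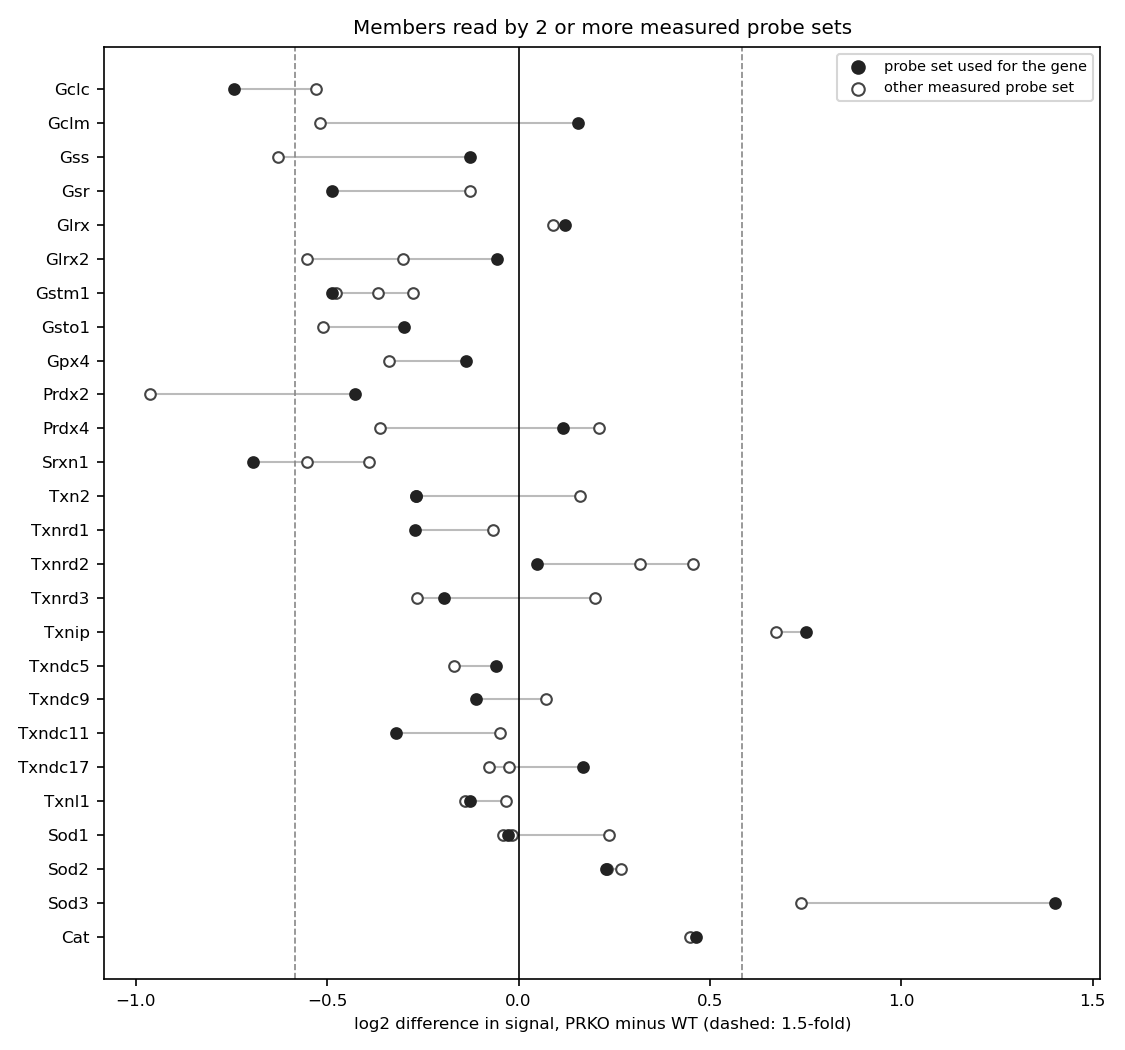
Log2 difference (knockout minus wild type) of each measured probe set, for the 26 antioxidant genes with 2 or more; the filled point is the probe set used. Gclc, Srxn1, Prdx2 and Gstm1 lie wholly below 0 and Sod3, Txnip and Cat wholly above it, while Gclm, Prdx4, Txn2 and Txnrd3 are among those that straddle 0.

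Of the enzymes that act on superoxide and hydrogen peroxide, the extracellular dismutase differed most. Sod3, which clears superoxide outside cells, had 257 in the knockout and 97.2 in the wild type, 2.64-fold higher, and 25 of the measured genes had a more positive log2 difference. Its other probe set gave 186 in the knockout and 111 in the wild type, a log2 difference of 0.74. The mitochondrial Sod2 had 1212 in the knockout and 1035 in the wild type, and its 3 measured probe sets lay between 0.23 and 0.27. Sod1, the cytosolic enzyme, had 2575 in the knockout and 2623 in the wild type, with up to 0.24 in its other probe sets. Cat, catalase, had 574 in the knockout and 417 in the wild type, 1.38-fold higher, with 0.45 in its other probe set. Some endothelial and stromal markers were higher in the knockout as well. The stromal Tcf21 was 2.76-fold and the stromal Lum 1.79-fold higher, while Pdgfra and Mgp were 1.33-fold and 1.24-fold lower. Of the 8 endothelial genes, 6 were higher and 2, Kdr and Cdh5, lower. Tie1, 1.94-fold higher, was the 1 endothelial gene past 1.5-fold. The part of these cell types in the Sod3 difference was not tested.

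Members were also grouped by where their products act. The 7 mitochondrial members, Sod2, Prdx3, Txn2, Txnrd2, Glrx2, Glrx5 and Gstk1, had a median of 0.05, with 4 higher and 3 lower. The 10 members of the secretory pathway or the outside of the cell had a median of 0.16, with 8 higher and 2 lower. Over all 11316 measured genes, 6534 differences were above 0 and 4781 below it. The thioredoxin-domain and thioredoxin-like genes, many of which fold proteins rather than clear oxidants, had a median of 0.06 over 11 measured. Txndc16 alone was past 1.5-fold, at 92.2 in the knockout and 60.3 in the wild type, and it was under 1.5-fold after each of the 3 rescalings and with an offset (0.50 to 0.55 on the log2 scale). Txnl1 gave 2752 in the knockout and 3007 in the wild type, and the other members of this family ran from -0.32 for Txndc11 to 0.46 for Txndc2.

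The transcript of NRF2 was close to equal, while those of its competitor Bach1 and its partners Maff and Mafk were lower in the knockout. Protein was not measured. Nfe2l2 had 893 in the knockout and 1039 in the wild type. Its target Hmox1, the haem-degrading enzyme, gave 78.6 in the knockout and 59.7 in the wild type, and its target Nqo1, a quinone reductase, lay at 40.9 in the knockout and at 31.0, under the floor, in the wild type. Of 12 NRF2 regulators, 10 were measured, of which 3 were at least 1.5-fold lower and 0 higher, where 4.75% of all measured genes were lower and 6.54% higher. The median of the list was -0.23. Bach1, which represses NRF2 target genes, had 380.1 in the knockout and 1092 in the wild type, 2.87-fold lower, with -1.53 in its other probe set. The small Maf genes Maff and Mafk, whose products pair with either factor, were 2.73-fold and 1.83-fold lower. Maff had 44.3 in the knockout and 121 in the wild type. Mafk had 114 in the knockout and 208 in the wild type. Keap1, which marks NRF2 for degradation, gave 243 in the knockout and 247 in the wild type.

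Supply of building blocks for glutathione was mixed, with 2 of 16 measured genes at least 1.5-fold lower and 2 higher (4.75% and 6.54% of all measured genes) and a median of 0.10. Slc7a11, the cystine carrier of the cystine-glutamate exchanger, had 19.0, under the floor, in the knockout and 83.5 in the wild type, at least 2.20-fold lower, with -0.75 in its other measured probe set. Slc3a2, its heavy chain, had 1450 in the knockout and 2613 in the wild type. The glutamine carrier gene Slc1a5 was 2.44-fold higher, from 174 in the knockout and 71.4 in the wild type. Cbs, which directs homocysteine towards cysteine, was 2.39-fold higher, from 128 in the knockout and 53.7 in the wild type, with 1.18 in its other probe set. Of 16 NADPH supply genes measured, 3 were at least 1.5-fold higher (6.54% of all measured genes) and 0 lower (4.75%), with a median of 0.01. These were Nnt, a proton-driven mitochondrial transhydrogenase, with 547 in the knockout and 341 in the wild type, Aldh1l1, a folate enzyme, with 174 in the knockout and 111 in the wild type, and the malic enzyme Me3 with 106 in the knockout and 70.2 in the wild type. After each rescaling 1 of the 16 was higher.

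**Figure D4:**
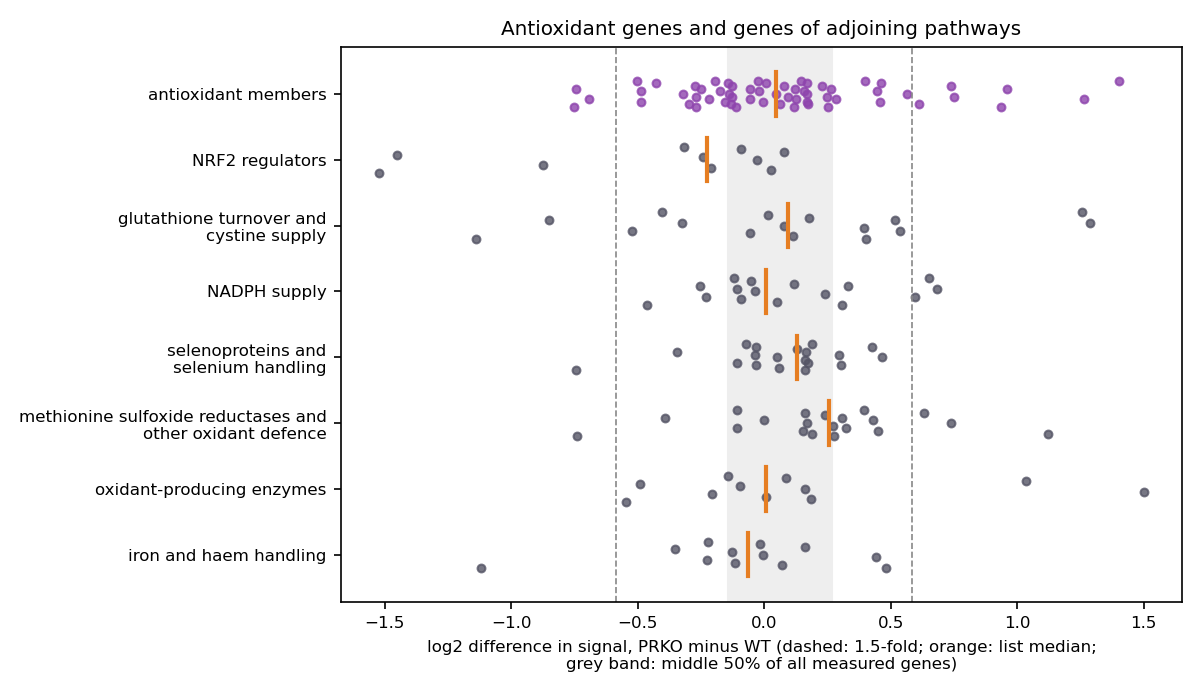
Log2 difference (knockout minus wild type) of each measured gene for the antioxidant members and 7 lists of adjoining pathways; orange bars are list medians and the grey band is the middle 50% of all measured genes. The NRF2 regulators have the lowest median, -0.23, and the methionine sulfoxide reductase list the highest, 0.26.

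The 10 members past 1.5-fold kept their sign under all alternatives in which they were measured. Gsta4, Gclc, Sod3, Mgst2 and Txnip stayed past 1.5-fold in all 8. With a floor at the 70th percentile, Gstm6, Gstt2, Gstm4 and Txndc16 were no longer measured. Gstm6 also had no value without _s_at, _x_at and _a_at probe sets, since its single probe set is of the _a_at kind. Srxn1 came to -0.55 on the log2 scale, short of 1.5-fold, when its probe sets were averaged and without _s_at, _x_at and _a_at probe sets, which can read related transcripts.

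**Figure D5:**
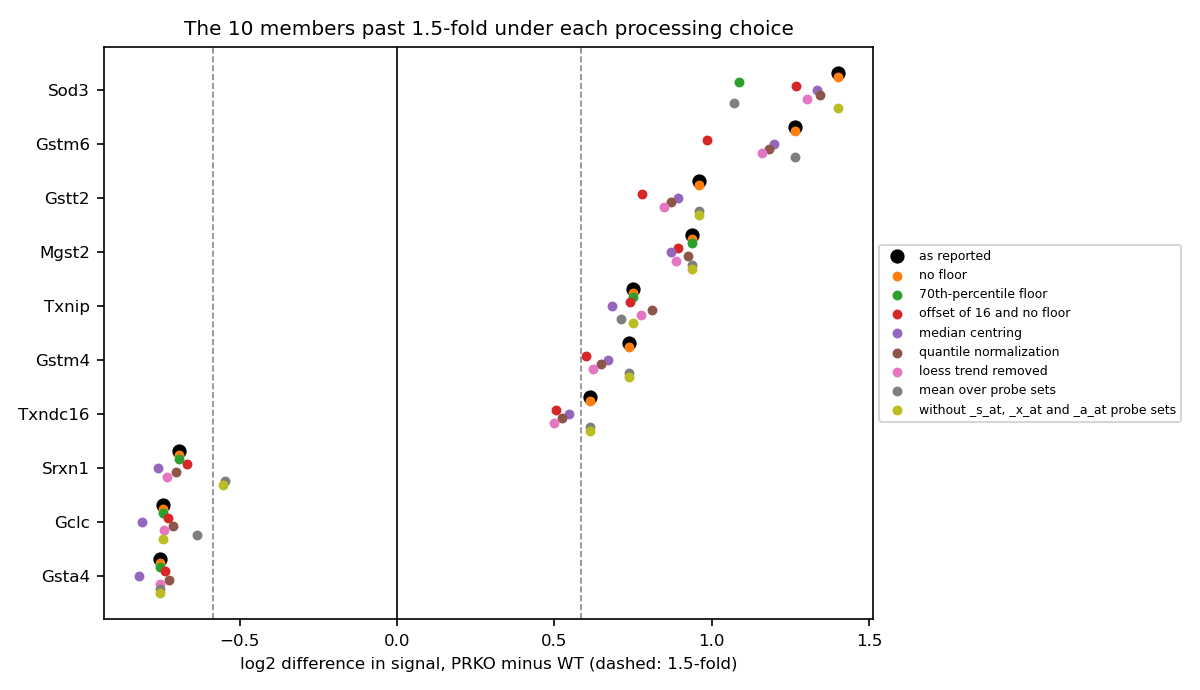
Log2 difference (knockout minus wild type) of the 10 antioxidant genes past 1.5-fold, as reported (black) and under each of 8 processing alternatives (colours); dashed lines mark 1.5-fold. No value crosses 0; Sod3 runs from 1.07 to 1.40, and Txndc16 and Srxn1 cross the 1.5-fold line.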

How the data were processed

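The authors deposited 1 linear intensity per probe set and array, computed with MAS5 in Affymetrix Expression Console version 1, per the submitters' processing notes. Both arrays had a mean of 150.0 after trimming 2% of probe sets at each end. MAS5 subtracts mismatch probes, so low signals are noisy, and the 3′ labelling kit reads transcript ends, per the labels' protocols. No genome build was given in the sources used here.

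Of 45101 probe sets, 64 controls were set aside. Of the rest, 34945 had 1 gene symbol, 932 several and 9160 none. Among the 932, 10 probe sets naming a gene that fits the choice of members beside another symbol were not used. Of these, 5 named Prdx1. All 68 members' gene IDs were in the RefSeq table of GRCm38.p6, used for names and neighbours. Signals under the floor were set to it and taken to log2. Folds against a floored array are written "at least". No test was possible with 1 array per genotype, and the number of arrays limits precision. Probe sets of 1 gene differed by an SD of 0.25 on the log2 scale over 4771 genes, which leaves out the spread between animals. The calculation was tested on simulated data.

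Members and lists were chosen with earlier results of these data known, and compartment groups, promoter motifs and shown promoters after the values were seen. Named were members past 1.5-fold, the 10 of highest signal, core enzymes and the 3 largest differences per list. Alternatives were floors, an offset of 16, 3 rescalings, probe set choices and a 2-fold threshold. Python 3.11.15, pandas 2.3.3 and statsmodels 0.14.6 were used.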

Additional observations from a re-analysis of the deposited data

How the results depend on the processing

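The members' median lay between -0.03 (70th-percentile floor) and 0.12 (without _s_at, _x_at and _a_at probe sets), and was also below 0 with no floor (-0.01) and with median centring (-0.02). The count at least 1.5-fold higher in the knockout, 7 of 59, was 3 of 49 with the 70th-percentile floor and 2 at a 2-fold threshold, and otherwise 6 to 9. The count at least 1.5-fold lower, 3 of 59, was 7 of 68 with no floor and 0 at 2-fold, and otherwise 2 or 3. Without the thioredoxin-domain and thioredoxin-like genes, an alternative added after the data were seen, 6 of 48 were higher and 3 lower. Among members that reached the floor on each array, also added later, 7 of 57 were higher and 3 lower. Over all genes, the counts with no floor were 2720 higher and 2979 lower, and with the 70th-percentile floor 265 and 322, against 740 and 538.

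Of 291 values of the 38 named members under alternatives, 5 moved by more than the probe set SD of 0.25 and 0 members past 1.5-fold changed sign. The 5 were Sod3 with the 70th-percentile floor (1.09) and with the mean over probe sets (1.07), Gstm6 with the offset (0.99), and Gclm (-0.18) and Prdx2 (-0.70) with the mean over probe sets. Of 126 counts in the adjoining lists, 100 stayed within 1.5 times and 26 did not. The medians of the NRF2 regulators ran from -0.34 to -0.06. The list median for glutathione turnover was -0.01 with loess, that for NADPH supply -0.06 with median centring, that for oxidant-producing enzymes -0.09 with the mean over probe sets, and that for iron 0.08 with that mean. No paired analysis was possible because each genotype has 1 array.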

Other observations

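Among methionine sulfoxide reductases and other oxidant defence genes, 3 of 20 were at least 1.5-fold higher in the knockout and 1 lower, with a median log2 difference of 0.26. Over all measured genes these shares were 6.54% higher and 4.75% lower, and the median was 0.06. Msrb2, a mitochondrial methionine sulfoxide reductase, had 219 in the knockout and 101 in the wild type. Sesn1, a stress-induced sestrin, had 520.2 in the knockout and 312 in the wild type, its probe sets lying between 0.30 and 0.87 in log2 difference. Gch1, which starts the synthesis of tetrahydrobiopterin, had 686 in the knockout and 1146 in the wild type, but its other probe set gave -0.12.

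Of 19 selenoprotein and selenium-handling genes, 1 (5.26%) was at least 1.5-fold lower, near the 4.75% of all measured genes, and 0 were higher, with a median of 0.13. Selenoi, a phospholipid-synthesizing enzyme gene, had 189 in the knockout and 317 in the wild type, its probe sets lying between -0.74 and 0.04. Sepsecs and Selenon had log2 differences of 0.47 and 0.43, with -0.31 in the other probe set of Sepsecs. Among oxidant-producing enzymes, 2 of 11 were higher (6.54% of all measured genes) and 0 lower (4.75%), with a median of 0.01. Aox1, an aldehyde oxidase, had 149 in the knockout and 52.8 in the wild type, and Maob, a monoamine oxidase, was at 74.4 in the knockout and under the floor in the wild type, at least 2.05-fold higher. Rac2, of the leukocyte NADPH oxidase, was at 34.9, under the floor, in the knockout and 55.5 in the wild type. Among iron and haem genes, 1 of 12 was lower (4.75% of all measured genes) and 0 higher (6.54%), with a median of -0.07. The zinc and iron carrier gene Slc39a14 had 120.5 in the knockout and 262 in the wild type, but its other probe set gave 0.05. The iron exporter gene Slc40a1 and ceruloplasmin (Cp) had log2 differences of 0.48 and 0.44. The measured probe sets of Cp lay between 0.04 and 0.98.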
